A study of Mus musculus with 24 samples.

Results

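D2.1 mammary tumors grown in SCID-beige mice were compared with the same D2.1 cells in culture, to describe how the transcriptome of this line differed between dish and mammary fat pad. The comparison used 8 of the 24 RNA-seq libraries of the series: 5 D2.1 tumors from SCID-beige hosts (tumors 1 to 5) and 3 D2.1 cultures (cultures 1 to 3). D2.1 is a mouse mammary line that arose from a D2 hyperplastic alveolar nodule of a BALB/c female and is used as a model of dormancy. The cultures were untreated, grown in low-glucose DMEM with 10% FBS. For the tumors, 1000000 cells were placed in the fourth inguinal mammary fat pad of female SCID-beige mice of 8 to 12 weeks, and the tumors were frozen at about 500 mm3. SCID-beige mice carry the Prkdc scid and Lyst bg mutations, lack T and B cells and have defective NK cells, and otherwise hold myeloid cells, vessels and stroma. Each tumor library was made from whole tissue, in which D2.1 cells and host cells were mixed, so that for any transcript a change in the number of cells of a type and a change in RNA per cell could not be told apart. The D2A1 line of the same origin, with 3 cultures and 5 SCID-beige tumors handled alike, and 4 D2.1 tumors from immunocompetent BALB/c hosts were used only to show where the D2.1 change differed.

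As background, cells that leave plastic for a tissue exchange excess growth factors, serum lipoproteins and a rigid surface for a vascularized matrix of collagen, laminin and fibronectin shared with fibroblasts, endothelial cells and macrophages. Several gene programs are known to read these conditions: the E2F and DREAM-controlled cell cycle genes follow proliferation, SREBP-2 targets follow cell sterol content, YAP/TEAD and SRF targets follow stiffness and actin tension, and HIF targets follow oxygen.

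Total counts were 18279712 to 24818234 in the cultures and 16066945 to 17656042 in the tumors, which puts 3 counts, the floor used here, at 0.121 to 0.188 CPM (counts scaled to a library total of 1000000). The level of a single gene is CPM on library sizes scaled by TMM (edgeR's trimmed mean normalization), whereas the floor range above and the summed marker levels use the totals of the shared genes without that scaling. Across the 14111 genes tested, the log2 CPM of cultures correlated with each other at 0.983 to 0.993 (Pearson, TMM-scaled). Those of tumors correlated at 0.926 to 0.974 and those of a culture and a tumor at 0.79 to 0.84. Culture and tumor counts came from separate tables with different gene annotations (35275 and 54532 genes, 34519 in both), so that growth condition and table cannot be told apart. A gene whose exons share bases with a gene listed only in the tumor table is marked as such where it is described; the others that do so are Alas2, Cd3e, Cd74, Col3a1, Ddit3, Dnajb9, F13a1, Foxp3, Hmgcs1, Id4, Lck, Mxd4, Nid1, Pdgfra, Pkm, S100a4, Sbsn and mt-Co1. Tumor 4 and tumor 5 also held transcripts of skeletal muscle (given with the host markers), and tumors 3 and 4 lay at opposite ends of the second principal component, which held 6.13% of the variance against 81.1% for the first.

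Of 14111 genes tested in D2.1, 7498 (53.1%) passed an adjusted p of 0.05 in edgeR's quasi-likelihood test with Benjamini-Hochberg adjustment: 4353 (30.8%) were higher and 3145 (22.3%) lower in tumors. The median log2 fold change over all genes tested was 0.09 with TMM scaling and 0.24 with library totals alone, a shift of 0.147, and the share of calls that were higher moved with it from 58.1% to 67.1%. A list of genes was read against these shares, with its count of members called and its median.

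**Figure D1:**
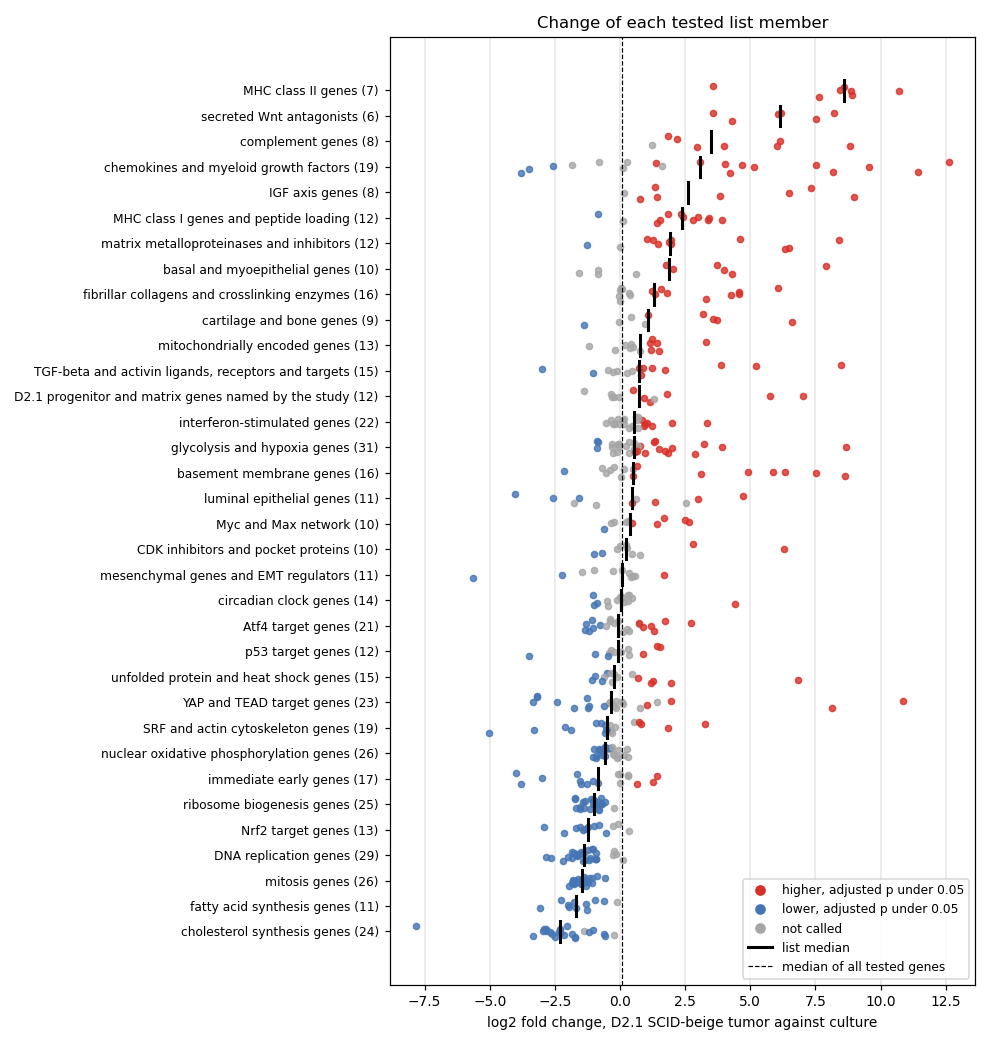
Log2 fold change, tumor over culture (horizontal axis), of each tested member of 34 gene programs (1 point per gene; number tested in parentheses), with the programs ordered by median on the vertical axis. Red and blue points passed the adjusted p of 0.05 as higher or lower, gray points did not, thick bars are list medians, and the dashed line is the median of all genes tested. Cholesterol synthesis has the lowest median, -2.30, and MHC class II genes have the highest, 8.59.

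Genes of cell division were lower in D2.1 tumors than in culture. All 26 mitosis genes tested fell (median log2 fold change -1.45), against 22.3% of all genes tested lower, and for 25 of them the groups did not overlap, against 51.4% of all genes: Nusap1 fell least, by 0.57 on the log2 scale, and Ttk most, by 1.97. The same list fell in D2A1 tumors at 26 of 26. None of the 26 was called in the line-by-condition test, which compares the change in D2.1 with that in D2A1. On simulated counts that test recovered 10% of differences of 1 and 73% of differences of 2 on the log2 scale. The lack of a call therefore does not show an equal change. Mki67, the proliferation antigen Ki-67, stood at 466, 619.6 and 346 CPM in cultures 1 to 3 and at 204, 131, 182, 203 and 239.9 CPM in tumors 1 to 5. The groups did not overlap, and culture 3 was the lowest of the cultures (-1.31 ± 0.22 log2, SE, adjusted p = 0.00055). Cdk1, the kinase that drives entry into mitosis, stood at 278, 201 and 184 CPM in culture and 60.5, 80.4, 60.6, 100.4 and 55.1 CPM in tumors (-1.63 ± 0.22, adjusted p = 0.00012). Its cyclin partner Ccnb1 stood at 274, 236 and 209 and 57.3, 53.6, 64.4, 102 and 62.6 CPM (-1.82 ± 0.21, adjusted p = 4.3e-05). Tumor 4 was the highest of the tumors for Cdk1 and Ccnb1 and still lay below every culture. Top2a, which untangles replicated DNA, stood at 552, 569 and 545 and 163, 153, 244, 326 and 238 CPM (-1.30 ± 0.23, adjusted p = 0.00069), and its exons share bases with the small-RNA gene Gm23451 that only the tumor table lists.

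The promoters of these 4 leading mitosis genes are shown because the list moved as a group and because CCAAT boxes beside a cell cycle homology region are the known layout of DREAM-controlled promoters. Each is the 250 bases before the RefSeq transcription start (GRCm38.p6, 5′ to 3′ on the gene's strand). Capitals mark CCAAT and TTTGAA on either strand, which do not overlap in their letters; adjoining matches run together.
Mki67, chr7:135716380-135716629, minus strand: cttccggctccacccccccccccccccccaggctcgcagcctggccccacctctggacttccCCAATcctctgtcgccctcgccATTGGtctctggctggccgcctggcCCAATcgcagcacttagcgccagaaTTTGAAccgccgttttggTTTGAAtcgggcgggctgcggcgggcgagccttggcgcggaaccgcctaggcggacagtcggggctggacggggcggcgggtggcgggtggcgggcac
Cdk1, chr10:69352913-69353162, minus strand: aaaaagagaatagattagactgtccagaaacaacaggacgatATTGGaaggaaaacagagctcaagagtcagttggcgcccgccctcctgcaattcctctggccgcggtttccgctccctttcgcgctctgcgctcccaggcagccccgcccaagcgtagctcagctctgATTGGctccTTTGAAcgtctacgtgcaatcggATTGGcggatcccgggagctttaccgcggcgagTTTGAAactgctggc
Ccnb1, chr13:100786487-100786736, minus strand: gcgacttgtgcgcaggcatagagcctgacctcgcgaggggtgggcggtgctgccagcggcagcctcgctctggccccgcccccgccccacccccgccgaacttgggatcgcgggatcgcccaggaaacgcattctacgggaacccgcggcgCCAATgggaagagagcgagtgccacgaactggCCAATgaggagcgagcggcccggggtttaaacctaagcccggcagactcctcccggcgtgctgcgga
Top2a, chr11:99024190-99024439, minus strand: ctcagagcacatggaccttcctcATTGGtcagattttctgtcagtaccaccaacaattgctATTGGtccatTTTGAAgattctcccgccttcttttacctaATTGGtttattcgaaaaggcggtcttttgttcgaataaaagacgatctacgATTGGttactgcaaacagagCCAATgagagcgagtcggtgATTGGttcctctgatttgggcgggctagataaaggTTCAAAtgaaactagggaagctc
CCAAT was present for 18 of the 21 mitosis genes with a RefSeq promoter (85.7%), against 33.8% of 32851 promoters and 34.8% of those of genes tested here. TTTGAA was present for 8 of 21 (38.1%), against 16% and 10.8%. Among the promoters shown, that of Ccnb1 held CCAAT but no TTTGAA. A list gene counted if any of its promoters matched, whereas the shares of all promoters count each promoter singly. Genes with several promoters can therefore raise the list share, here and for the motifs below. These matches describe letters and not binding.

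DNA replication genes fell alongside, at 25 of 29 tested with none higher (median -1.40; 27 of 29 lower in D2A1). Rrm2, the regulated subunit of ribonucleotide reductase, fell most among the leading members, from 313, 308 and 201 CPM in culture to 32.4, 26.9, 51.4, 46.8 and 34.8 CPM in tumors (-2.83 ± 0.23, adjusted p = 3.5e-06). Mcm2 and Mcm5, parts of the replicative helicase, changed by -1.77 and -2.01, and Pcna, the polymerase clamp, by -1.55; the groups did not overlap for any of these. The members that did not pass were Gins3, Rfc2, Fen1 and E2f1. Ribosome biogenesis followed, with 24 of 25 lower and a median of -0.99. Nucleolin (Ncl) stood at 1813, 2323 and 1188 CPM in culture and 552, 429.9, 432, 761 and 517 CPM in tumors (-1.72 ± 0.24, adjusted p = 0.00017), though it shares exon bases with small RNAs listed only in the tumor table. Dkc1, the pseudouridine synthase, shares none and fell from 118 to 220.5 CPM in culture to 38.4 to 67.5 CPM in tumors (-1.55 ± 0.23, adjusted p = 0.00024).

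Myc, a regulator of growth and ribosome biogenesis genes, did not pass. It stood at 102, 93.7 and 95.1 CPM in culture and 68.5, 81.5, 126, 200.1 and 89.9 CPM in tumors (0.23 ± 0.30, adjusted p = 0.55), with tumors 3 and 4 above and tumors 1, 2 and 5 below the cultures. Among 10 Myc and Max network genes, 5 were higher and 1, Mxd3, was lower. The higher ones were Mycl, Mxd1, Mxd4, Mxi1 and Mnt, and without culture 1 or culture 2 the count higher was 3. Mxd4 rose from 47.5, 48.5 and 149.9 to 285, 260.0, 167, 144 and 226 CPM (1.40 ± 0.39, adjusted p = 0.011), a call lost without culture 1 (1.11) or culture 2 (1.12), and tumor 4 lay below culture 3. Of 10 CDK inhibitors and pocket proteins, Cdkn1a and Cdkn1c rose and Cdkn2d and Rbl1 fell. These shares, 20% each way, lay below those of all genes tested, 30.8% higher and 22.3% lower. Cdkn1a, which encodes p21, stood at 11.5, 11.05 and 3.74 CPM in culture and 60.0, 47.3, 78.4, 85.1 and 32.7 CPM in tumors (2.79 ± 0.42, adjusted p = 0.00028). Both risers share exon bases with genes listed only in the tumor table, and without tumor 1 or tumor 2 just 1 of them passed. Cdkn1b (p27) at 0.25 and Cdkn2a (p16 and p19) at 0.25 did not pass (adjusted p = 0.37 and 0.37).

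Sterol and lipid synthesis genes fell, and those of cholesterol synthesis had the lowest median of the 34 programs. Of 24 cholesterol synthesis genes 22 fell, none rose, and the median was -2.30, or -2.16 over the members whose exons are not shared. Hmgcs1, which makes HMG-CoA, stood at 435, 471 and 337 CPM in culture and 40.9, 35.7, 80.02, 67.9 and 60.9 CPM in tumors (-2.86 ± 0.25, adjusted p = 6.0e-06). The highest tumor lay far under the lowest culture. Sqle, squalene epoxidase, stood at 59.1, 30.6, 106, 366 and 42.1 CPM in tumors 1 to 5 against 318, 359 and 277 CPM in culture. Tumor 4 lay above every culture and the other 4 tumors below, and Sqle did not pass (adjusted p = 0.1), whereas without tumor 4 it changed by -2.41 and passed. Mvd was the other member that did not pass (-0.23). The search found a sterol regulatory element (TCACCCCAC, either strand, shown in capitals) only for Hmgcs1, among 17 cholesterol genes with a RefSeq promoter. That is 5.88%, against 0.496% of all promoters and 0.527% of those of tested genes.
Hmgcs1, chr13:119690101-119690350, plus strand, GRCm38.p6: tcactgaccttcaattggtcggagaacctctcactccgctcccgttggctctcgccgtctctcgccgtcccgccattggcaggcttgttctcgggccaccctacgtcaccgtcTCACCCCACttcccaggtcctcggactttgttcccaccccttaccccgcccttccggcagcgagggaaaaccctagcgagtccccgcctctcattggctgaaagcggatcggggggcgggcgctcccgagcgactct

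This fall went further in D2.1 than in D2A1: 11 of the 24 members had a more negative change in D2.1 and none a more positive one, against 8.18% and 4.62% of 15077 genes in the line-by-condition test. Hmgcs1 changed by -0.92 in D2A1, a difference of -1.95 ± 0.34 (SE, adjusted p = 0.00066). Fatty acid synthesis fell at 10 of 11 genes (median -1.71). Fasn, fatty acid synthase, stood at 1127, 1327 and 1123 CPM in culture and 319, 226, 313, 364 and 274 CPM in tumors (-1.995 ± 0.17, adjusted p = 4.8e-06), and Scd1, which desaturates stearate, changed by -1.71 ± 0.21. The exception was Acly, which supplies cytosolic acetyl-CoA: it stood at 882, 827 and 843 and 789, 717, 814, 692 and 923 CPM with overlapping groups (-0.11, adjusted p = 0.55), and fell by 1.19 in D2A1, a difference of 1.06 ± 0.23 (adjusted p = 0.0046).

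Targets of mechanical and growth factor signals fell more often than they rose. Of 23 YAP and TEAD targets 9 fell and 4 rose (median -0.34, or -0.20 with library totals alone, where 7 fell). These are 39.1% lower and 17.4% higher, against 22.3% and 30.8% of all genes tested. Ccn1, the secreted matricellular protein CYR61, stood at 859, 708 and 1250.2 CPM in culture and 62.2, 102, 86.8, 113 and 95.6 CPM in tumors (-3.35 ± 0.23, adjusted p = 8.7e-07). Ankrd1, a canonical YAP target, stood at 124, 113 and 111 and 9.09, 7.36, 17.3, 17.1 and 12.5 CPM (-3.19 ± 0.27, adjusted p = 3.9e-06), and Amotl2, a feedback inhibitor of YAP, at 293, 289.8 and 346 and 61.3, 49.0, 62.6, 51.0 and 65.8 CPM (-2.42 ± 0.15, adjusted p = 5.1e-07). None of these 3 overlapped between groups. Ccn2, or CTGF, was less sure, at 40.8, 41.5 and 98.7 and 20.4, 22.4, 9.55, 34.6 and 45.7 CPM with tumor 5 inside the culture range (-1.18 ± 0.44, adjusted p = 0.039), and its call was lost without culture 3 (-0.65), tumor 1 (-1.11) or tumor 2 (-1.12), and with library totals alone (-1.08). The 4 that rose were Rbms3, Gadd45a, Igfbp3 and Ccdc80; fibroblast markers, given further on, were higher in the same tumors, and their part was not tested. The line-by-condition test called 8 of the 23 more negative in D2.1 and 3 more positive; the differences were -2.51 for Ccn1, -2.43 for Ccn2, -1.49 for Ankrd1 and -1.57 for Amotl2. The TEAD motif GGAATG was in promoters of 7 of 16 YAP target genes (43.8%, against 12.6% of all promoters and 10.8% of those of tested genes).

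Of 19 SRF and actin genes, 10 fell and 4 rose (median -0.50). With library totals alone 7 fell (median -0.36). The shares in the main fit were 52.6% lower and 21.1% higher, against 22.3% and 30.8% of all genes tested. Vinculin (Vcl), which links integrins to actin, stood at 259, 304 and 429 CPM in culture and 41.8, 30.3, 100.4, 128 and 154 CPM in tumors, the lowest in tumors 1 and 2 (-1.87 ± 0.44, adjusted p = 0.0045). Srf itself stayed between 76.5 to 108 CPM in tumors and 97.0 to 101 CPM in culture (-0.18, adjusted p = 0.33). Myl9, a smooth muscle myosin light chain, was among the 4 that rose (from 1.57 to 2.83 CPM in culture to 2.54 to 13.6 CPM in tumors, 1.84 ± 0.55, adjusted p = 0.015), with Tpm2, Fhl2 and Zyx; its call was lost without culture 3 (1.61) and without tumors 4 and 5 together (1.23). The pericyte and smooth muscle markers described further on rose in the same tumors, and their part in Myl9 was not tested. The CArG box was in promoters of 8 of 17 genes of this list (47.1%, against 1.47% of all promoters and 1.14% of those of tested genes). Immediate early genes fell at 9 of 17 and rose at 3, Jun, Egr2 and Egr3 (median -0.85, or -0.55 without culture 1 and -0.47 over the members whose exons are not shared). Fos stood at 261, 174 and 79.8 CPM in culture and 8.80, 10.4, 14.5, 14.1 and 13.4 CPM in tumors (-3.81 ± 0.32, adjusted p = 4.3e-06), and Nr4a1, an orphan nuclear receptor, at 535, 344 and 57.6 and 12.6, 13.0, 16.2, 34.7 and 22.2 CPM (-3.98 ± 0.57, adjusted p = 0.00021). Both varied widely among cultures and lay lower in every tumor. Jun went the other way, from 92.0 to 117 CPM in culture to 139 to 192 CPM in tumors (0.67 ± 0.16, adjusted p = 0.0056).

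**Figure D2:**
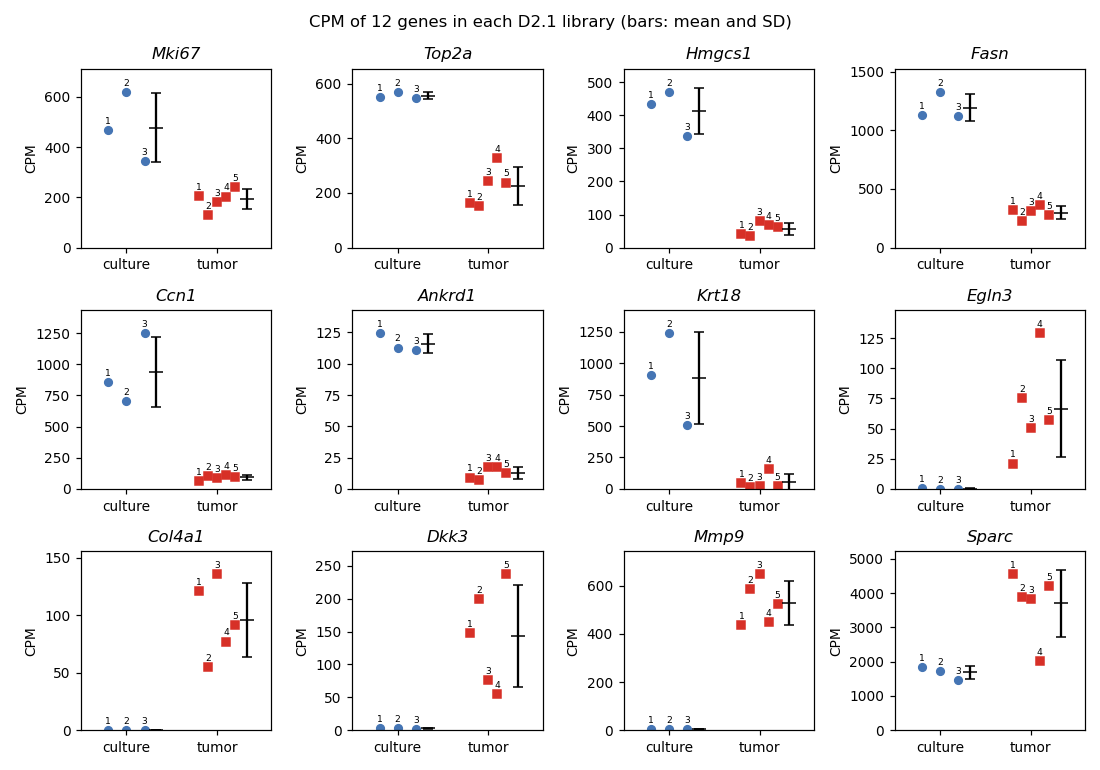
CPM (vertical axes, linear from 0) of 12 genes in each D2.1 library, with cultures 1 to 3 as circles and tumors 1 to 5 as squares, each labeled by its number; bars beside the points are the mean and SD. Mki67, Top2a, Hmgcs1, Fasn, Ccn1, Ankrd1 and Krt18 sit lower in all 5 tumors than in the 3 cultures, and Egln3, Col4a1, Dkk3, Mmp9 and Sparc sit higher.

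Luminal epithelial genes moved in both directions between cultures and tumors. Keratins 8 and 18, the paired luminal keratins, were high in culture. Krt8 stood at 2927, 3514 and 1839 CPM in culture and 369, 430.5, 265, 891 and 346 CPM in tumors (-2.58 ± 0.36, adjusted p = 0.00015), and Krt18 at 908, 1239 and 505 and 47.8, 11.9, 24.9, 161 and 24.0 CPM (-4.03 ± 0.72, adjusted p = 0.0009). Tumor 4 was the highest tumor for both and lay below every culture. Krt8 shares exon bases with Gm36026, listed only in the tumor table; Krt18 shares none with such a gene. E-cadherin (Cdh1) stood at 33.8, 36.7 and 24.9 and 5.20, 11.2, 5.52, 20.3 and 11.6 CPM (-1.56 ± 0.39, adjusted p = 0.0058). These 3 were the luminal genes called lower, while Epcam, Krt19, Gata3 and Esr1 were higher among 11 tested. The shares, 27.3% lower and 36.4% higher, lay near the 22.3% and 30.8% of all genes tested. The count of 4 became 2 without culture 1, culture 3 or tumor 2, and 1 without tumors 4 and 5 together. Epcam, an epithelial adhesion molecule, was scarce in culture (0.388, 0.730 and 0.651 CPM) and stood at 4.17, 2.94, 2.26, 10.6 and 3.64 CPM in tumors (2.98 ± 0.60, adjusted p = 0.0017).

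Of 10 basal and myoepithelial genes 6 rose and none fell (median 1.89). Krt14, the basal keratin, stood at 7.76, 9.27 and 5.21 CPM in culture and 61.9, 58.9, 321, 79.2 and 67.4 CPM in tumors, with tumor 3 apart (3.99 ± 0.66, adjusted p = 0.00051 in edgeR; it did not pass in DESeq2). Its partner Krt5 had no counts in culture and 1.03, 3.49, 0.828, 1.75 and 1.09 CPM in tumors, a rise of at least 10.5-fold against a floor of 3 counts per library; it shares exon bases with Gm44323. Skin keratinocyte markers summed to 0.0807 to 0.164 CPM in culture and 0.884 to 1.82 CPM in tumors, and their part in the basal keratins was not tested. Of 11 mesenchymal genes and EMT regulators, Zeb1 rose and Snai2 and S100a4 fell. As shares these are 9.09% higher and 18.2% lower, below the 30.8% and 22.3% of all genes tested. Vimentin (Vim) was abundant throughout, at 4989, 5746 and 3498 CPM in culture and 5919, 7414, 5609.6, 6432 and 7957 CPM in tumors (0.49 ± 0.21, adjusted p = 0.065), which did not pass with TMM and passed with library totals alone (0.65). Zeb1, a repressor of E-cadherin, stood at 12.03, 10.9 and 8.36 and 34.8, 26.6, 43.5, 25.7 and 36.9 CPM (1.68 ± 0.24, adjusted p = 0.00017), and Snai2, or Slug, at 47.5, 52.3 and 75.8 and 14.1, 11.1, 10.2, 11.8 and 16.0 CPM (-2.21 ± 0.21, adjusted p = 1.0e-05). Neither overlapped between groups.

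Keratin and cadherin changes differed between the lines. In D2A1 the log2 fold change was 0.96 for Krt8, which did not pass there, and 1.08 for Krt18, and the line-by-condition differences were -3.55 ± 0.63 and -5.12 ± 0.87 (adjusted p = 0.00074 and 0.00049). For Cdh1 the D2A1 change was 2.45 and the difference -4.03 ± 0.58 (adjusted p = 0.0001). Zeb1 rose in D2.1 and stood at a log2 fold change of 0.03 in D2A1, which did not pass, a difference of 1.64 ± 0.36 (adjusted p = 0.004).

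The progenitor and matrix genes among those that mark D2.1 in the study, chosen on samples of this series and therefore not independent of them, moved unevenly. Of 12, 6 rose, none fell, and the median was 0.71. Those that rose were Sox9, Ptn, Sparc, Itga5, Mmp9 and Dkk3. Among other genes the study names, given above, Krt8, Krt18, Cdh1 and Snai2 fell, while Krt14 and Epcam rose. In D2A1, 9 of 11 members of the list rose (median 2.13). The line-by-condition test called 5 of 12 more negative in D2.1 and none more positive. Dkk3, a secreted Wnt modulator, stood at 3.11, 3.42 and 1.36 CPM in culture and 148, 199.6, 76.0, 55.4 and 237 CPM in tumors (5.76 ± 0.60, adjusted p = 1.9e-05), the tumors spread over a wide range with tumor 4 lowest. Ptn, the growth factor pleiotrophin, stood at 69.8, 64.6 and 47.2 and 164, 238, 247, 137 and 277 CPM (1.81 ± 0.26, adjusted p = 0.00018). Sparc, a collagen-binding matricellular protein, stood at 1854, 1736 and 1465 and 4546, 3888, 3826, 2013 and 4219 CPM (1.13 ± 0.25, adjusted p = 0.0031), with tumor 4 nearest to the cultures. Sox9, a progenitor transcription factor, moved little, from 101, 93.0 and 97.1 to 140.3, 126, 159.5, 100.3 and 156 CPM (0.49 ± 0.17, adjusted p = 0.033); the groups overlapped at tumor 4, and the call was lost when culture 1 (0.51), culture 2 (0.45), culture 3 (0.48), tumor 1 (0.46), tumor 3 (0.43) or tumor 5 (0.44) was left out. Cd200 at -0.30 and Id4 at -0.22 did not pass (adjusted p = 0.2 and 0.83). Id4 stood at 15.3, 13.1 and 7.33 CPM in culture and 3.71, 2.29, 36.4, 4.39 and 4.19 CPM in tumors, so that tumor 3 alone was above the cultures, and without tumor 3 the change was -1.70 and passed.

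Fibrillar matrix genes rose, or did not pass. Of 16 fibrillar collagens and crosslinking enzymes 9 rose and none fell (median 1.29, against 30.8% of all genes higher and a median of 0.09). Col11a1, which nucleates thin fibrils, stood at 0.222, 0.183 and 0.488 CPM in culture and 2.57, 10.1, 2.87, 4.05 and 9.59 CPM in tumors (4.27 ± 0.69, adjusted p = 0.00041). Lox, lysyl oxidase, stood at 0.610, 0.776 and 0.0543 and 7.14, 7.85, 0.884, 19.9 and 22.3 CPM, with tumor 3 the lowest (4.55 ± 1.01, adjusted p = 0.0031). Col5a1 (0.34) and the collagen chaperone Serpinh1 (-0.04) were already abundant in culture and did not pass (adjusted p = 0.17 and 0.85). By gain in CPM, 5 of the 8 largest gains in the transcriptome were fibrillar or type VI collagens. Col3a1, the type III chain of loose connective tissue, stood at 24.9, 28.0 and 10.5 CPM in culture and 4079, 4871, 2868, 3988 and 7609 CPM in tumors (7.79 ± 0.51, adjusted p = 6.5e-07). The 3 chains of beaded-filament collagen VI were high in both: Col6a1 changed by 1.33 ± 0.19, Col6a2 by 1.54 ± 0.17 and Col6a3 by 2.22 ± 0.18. In D2A1 the same chains changed by 6.33, 6.62 and 6.49, from means of 9.91, 4.52 and 6.36 CPM in culture, and all 3 differences were called (-5.01, -5.10 and -4.29). Col1a1 rose from 1794 to 2576 CPM in culture to 2297 to 5182 CPM in tumors (0.75 ± 0.25, adjusted p = 0.026), with tumor 3 inside the culture range, and the call was lost without culture 1 (0.64), culture 2 (0.69), tumor 1 (0.72) or tumor 5 (0.59), and without tumors 4 and 5 together (0.61).

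Basement membrane genes split: 8 of 16 rose, Lama5 fell, and the median was 0.49, or 0.32 over the members whose exons are not shared. Col4a1, the α1 chain of type IV collagen (chr8:11198423-11312826, GRCm38), had the sharpest pattern, with 0.111, 0.365 and 0.217 CPM in culture and 121, 55.0, 136, 77.1 and 91.3 CPM in tumors (8.61 ± 0.48, adjusted p = 2.4e-07). Every tumor lay far above every culture. In D2A1 the means were 613 CPM in culture and 814 CPM in tumors (log2 fold change 0.41, which did not pass), so that the difference between lines was 8.19 ± 0.53 (adjusted p = 1.3e-08). Nid1, nidogen, which ties laminin to collagen IV, stood at 0.222, 0.137 and 0.271 and 11.8, 6.97, 13.3, 14.4 and 16.9 CPM (5.89 ± 0.45). It was not called in the line-by-condition test (0.15, adjusted p = 0.96). Perlecan (Hspg2) did not pass (0.49, adjusted p = 0.079) and passed without tumor 4 (0.63) and with library totals alone (0.63). Fibroblast markers summed to 1826 to 2804 CPM in culture and 7662 to 17638 CPM in tumors, and endothelial markers to 132 to 162 and 289 to 345 CPM. The fibroblast list itself holds Col1a1, which was already abundant in culture, so its sum is not independent of the matrix genes. The part of either cell type in the matrix genes was not tested.

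Matrix metalloproteinases rose at 10 of 12 members including Timp2 and Timp3, while Timp1 fell (median 1.92). Mmp14, the membrane-anchored collagenase, stood at 239.9, 315 and 338 CPM in culture and 1052, 1378, 565, 1219.8 and 1547 CPM in tumors (1.95 ± 0.30, adjusted p = 0.00031). Mmp13 stood at 0.166, 0.183 and 0.109 and 9.66, 8.499, 7.79, 20.5 and 26.0 CPM (6.498 ± 0.64), and Mmp3, stromelysin, at 0.998, 2.01 and 0 and 18.2, 32.4, 7.23, 34.7 and 31.9 CPM (4.59 ± 0.83). Timp3 overlapped at tumor 4 (30.4, 30.4 and 12.2 and 70.6, 57.9, 64.4, 23.7 and 72.0 CPM, 1.25 ± 0.39, adjusted p = 0.018) and lost its call without culture 3 (0.91). The AP-1 motif TGANTCA was in promoters of 4 of 11 genes of this list (36.4%, against 6.75% of all promoters and 4.72% of those of tested genes). Cartilage genes included Col2a1, the type II collagen of cartilage, at 0.887, 0.639 and 0.977 CPM in culture and 91.0, 79.8, 45.7, 44.2 and 143 CPM in tumors (6.59 ± 0.51, adjusted p = 2.2e-06), with all 5 tumors far above the cultures. The other members that rose were Comp, Chad, Sox5 and Alpl, and Spp1 was the 1 that fell among the 9 tested. Without tumors 4 and 5 together the count higher was 2, in a fit that may have left scarce members untested. Spp1, osteopontin, stood at 8310.2, 7048 and 4186 and 1479, 1818, 4555, 2526 and 1956 CPM (-1.40 ± 0.35, adjusted p = 0.0055), with tumor 3 within the culture range, and it shares exon bases with Gm42793 of the tumor table.

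Secreted regulators of growth formed 3 groups. All 6 secreted Wnt antagonists tested rose (median 6.12, or 4.002 with the 2 members that had no culture counts set at their bound). Sfrp2 stood at 0.610, 0.913 and 1.95 CPM in culture and 202, 325, 128, 109 and 307 CPM in tumors (7.53 ± 0.58, adjusted p = 2.2e-06), and Dkk2 had no counts in culture and 1.49, 2.02, 0.552, 3.15 and 2.91 CPM in tumors, at least 13.0-fold higher. Sfrp1 and Wif1 were scarce and overlapped the cultures at tumor 3. Sfrp1 lost its call without culture 1 (3.75) or culture 2 (4.41) and Wif1 without culture 2 (3.59) or culture 3 (3.01). The list had 3 members called without culture 2. It also had 3 without tumors 4 and 5 together, a fit of 13563 genes that may have left scarce members untested. Of 8 IGF axis genes 7 rose (median 2.62). Igfbp7, a vascular and fibroblast IGF-binding protein, stood at 0.0555, 0.183 and 0 and 56.3, 36.1, 43.0, 48.6 and 46.3 CPM (8.97 ± 0.46), Igfbp5 at 10.0, 12.6 and 10.4 and 246, 75.2, 199, 94.0 and 168 CPM (3.83 ± 0.41), and Igf1 at 14.0, 15.7 and 13.2 and 34.9, 40.9, 22.9, 27.0 and 65.6 CPM (1.42 ± 0.32, adjusted p = 0.0033). The groups did not overlap for these 3. TGF-beta genes rose at 8 of 15 and fell at 2, Smad7 among them (median 0.72); the count higher was 4 without culture 1 and 5 without culture 2. Tgfb1 stood at 140.1, 142 and 142 and 225, 256, 208, 295 and 235 CPM (0.79 ± 0.15, adjusted p = 0.0014), and Inhba, the activin βA chain, at 24.2, 25.4 and 25.2 and 30.2, 41.6, 153, 71.4 and 117 CPM with tumor 3 highest (1.73 ± 0.47, adjusted p = 0.0093).

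Energy metabolism did not move as a block. Of 31 glycolysis and hypoxia genes 14 rose and 3, Pkm, Hk1 and Hk2, fell (median 0.54). Car9, the HIF-induced carbonic anhydrase IX, stood at 41.5, 36.3 and 38.7 CPM in culture and 87.8, 173, 128, 162 and 139.7 CPM in tumors (1.83 ± 0.22, adjusted p = 6.1e-05). Egln3, a HIF-induced prolyl hydroxylase named here after its values were seen, stood at 0.388, 0.0457 and 0.0543 and 20.97, 75.4, 50.6, 129 and 57.2 CPM (8.68 ± 0.82). Vegfa, the endothelial growth factor, stood at 100.05, 85.0 and 52.4 and 107, 157, 224, 133 and 142 CPM (0.95 ± 0.27, adjusted p = 0.011), a call lost without culture 3 (0.71). The glucose transporter Slc2a1 (0.53) and lactate dehydrogenase Ldha (-0.03) did not pass (adjusted p = 0.26 and 0.94). For both, tumor 4 lay above all cultures. ACGTG, the core of the hypoxia response element, was in promoters of 17 of 29 genes (58.6%, against 16.6% of all promoters and 21% of those of tested genes).

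Nuclear genes of oxidative phosphorylation fell at 15 of 26 with none higher (median -0.57), while 6 of 13 mitochondrially encoded genes rose and none fell (median 0.77). With library totals alone, 12 of the nuclear genes fell (median -0.42) and 7 of the mitochondrially encoded genes rose. Sdha, of complex II, stood at 239, 261 and 262 CPM in culture and 136, 139.7, 120.5, 178 and 148 CPM in tumors (-0.81 ± 0.15, adjusted p = 0.0011), and mt-Co1, of complex IV, at 3449.7, 5203 and 2163 and 8715, 8701, 5863, 8435 and 8354 CPM (1.152 ± 0.27, adjusted p = 0.0044). Both were free of overlap. Cox4i1, a nuclear subunit of the same complex IV, did not pass (-0.09, adjusted p = 0.64). The share of counts on mitochondrial genes was 0.675% to 1.48% in culture and 1.33% to 2.34% in tumors, and its part in these values was not tested.

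Nrf2 targets, which handle oxidants, fell at 10 of 13 with none higher (median -1.23), or at 8 with library totals alone. Nqo1, the quinone reductase, stood at 116, 112 and 103 CPM in culture and 8.46, 13.0, 18.6, 24.2 and 8.07 CPM in tumors (-2.93 ± 0.32, adjusted p = 3.0e-05), and Gclm, of glutathione synthesis, at 135, 132 and 98.3 and 40.1, 38.3, 60.5, 40.7 and 47.2 CPM (-1.43 ± 0.19, adjusted p = 0.0001). The groups did not overlap for either. Hmox1, heme oxygenase, also fell (from 123 to 142 CPM in culture to 35.6 to 122 CPM in tumors, -1.002 ± 0.33, adjusted p = 0.024), and lost its call without culture 1 (-0.98), culture 2 (-0.98), tumor 2 (-0.94) or tumor 5 (-0.87), without tumors 4 and 5 together (-0.90) and with library totals alone (-0.84). Nqo1 and Hmox1 changed by -0.65 and 0.87 in D2A1 (differences -2.29 and -1.89). In other stress lists the shares called lay near those of all genes tested, 30.8% higher and 22.3% lower. They were 28.6% and 28.6% for Atf4 targets and 33.3% and 26.7% for unfolded protein and heat shock genes. For p53 targets they were 25% and 25%. Of 21 Atf4 targets 6 rose and 6 fell (median -0.08, from -0.39 without tumor 3 to 0.13 without tumor 2): Ddit3, or CHOP, changed by 1.30 and Asns, asparagine synthetase, by -0.76. The call of Asns was lost with library totals alone (-0.60), without culture 1 (-0.70), culture 2 (-0.62), tumor 2 (-0.62), tumor 3 (-0.73) or tumor 5 (-0.67), and without tumors 4 and 5 together (-0.76). Of 15 unfolded protein and heat shock genes 5 rose and 4 fell; Dnajb9 changed by 1.27 and Hsph1 by -1.08. Among 12 p53 targets 3 rose and 3 fell, the count higher being 1 without culture 1, culture 2, tumor 3 or tumor 5, and Mdm2 (-0.21), Ccng1 (-0.43), Phlda3 (-0.36) and Trp53 itself (0.30) did not pass. Of 14 clock genes Npas2 rose and Nr1d2, Clock and Cry1 fell, with 1 lower without culture 2. Their shares were 7.14% higher and 21.4% lower, neither above that of all genes tested.

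Host cells were measured through 16 lists of markers. Macrophage markers summed to 34.5 to 42.5 CPM in culture, with Cd163, Cd68 and Cd14 among the genes detected, and to 2099 to 4721 CPM in the tumors; 19 of 20 rose, the exception being Cd163. Adgre1, which encodes F4/80, stood at 0, 0.137 and 0 CPM in culture and 87.7, 98.0, 116, 81.6 and 98.8 CPM in tumors, a count ratio of 1879-fold (95% counting interval 643 to 9115). C1qa, of the complement C1q complex made by tissue macrophages, stood at 0, 0.365 and 0 and 450.4, 604, 498, 234 and 291 CPM, and the mannose receptor Mrc1 at 0.0555, 0.0457 and 0.0543 and 105, 99.6, 219.6, 51.0 and 114 CPM. Tumor 4 was the lowest tumor for each of these 3. A fold change fitted for a gene with so few culture counts, here or elsewhere, depends on the prior count of the fit and is not a bound. Neutrophil markers rose at 8 of 8 (sum 0.219 to 0.972 CPM in culture, 44.8 to 134 CPM in tumors), although Ly6g reached at most 0.110 CPM in any tumor and Camp and Elane had no counts in tumors and were not tested, and dendritic cell markers at 9 of 10 (3.47 to 4.71 and 101 to 184 CPM). Xcr1, of cross-presenting dendritic cells, had no counts in culture and 5.66, 4.96, 2.71, 4.50 and 5.04 CPM in tumors, at least 29.4-fold higher.

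Lymphoid transcripts were few but present. T cell markers summed to 4.05 to 5.63 CPM in culture and 21.9 to 53.6 CPM in SCID-beige tumors, against 139 to 362 CPM in D2.1 tumors of BALB/c hosts. The defining T and B genes Cd3e, Cd8a, Foxp3 and Ms4a1 were at or near 0, with Cd3e at most 0.381 CPM and Cd8a at most 0.425 CPM in any tumor, and did not reach the count needed to be tested. The 5 T cell list members that rose were Cd4, Lck, Cd28, Trbc1 and Trbc2. Cd4, which macrophages and dendritic cells can also express, stood at 11.8, 9.15, 6.07, 4.95 and 4.01 CPM in tumors. B cell markers summed to 0.847 to 0.921 CPM in culture and 25.7 to 69.7 CPM in tumors (126 to 783 CPM in BALB/c hosts), with Cd79b, Ighm and Jchain called. Jchain rested on 0 to 0.676 CPM, was 0 in tumor 2, and lost its call without culture 2 (3.62) or culture 3 (3.71). NK cell markers rose at 10 of 11, from 5.31 to 6.37 CPM summed in culture to 71.6 to 189 CPM in tumors (248 to 367 CPM in BALB/c hosts, 12.7 to 24.5 CPM in D2A1 SCID-beige tumors). Ncr1, which encodes the NK receptor NKp46, had no counts in culture and 7.60, 9.21, 4.69, 4.05 and 10.4 CPM in tumors (at least 46.3-fold higher), and Gzma, granzyme A, stood at 0.0555, 0 and 0 and 11.3, 16.4, 3.09, 13.3 and 12.1 CPM. Klrb1c, which encodes NK1.1, was 3.15 to 4.93 CPM in culture and 2.36 to 11.2 CPM in tumors and did not pass (0.54, adjusted p = 0.38); it shares exon bases with Gm44511 of the tumor table.

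**Figure D3:**
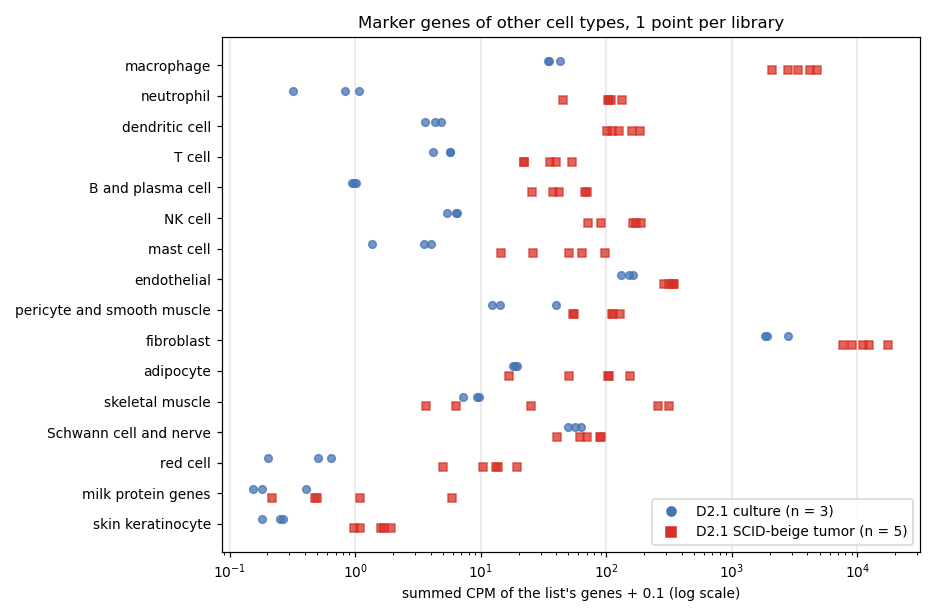
Summed CPM of each of the 16 marker lists plus 0.1 (horizontal axis, log scale) in the 3 D2.1 cultures (circles) and 5 D2.1 SCID-beige tumors (squares), 1 point per library. Culture and tumor points are separate for 12 lists, among them macrophage (34.5 to 42.5 against 2099 to 4721 CPM), and meet or cross for adipocyte, skeletal muscle, Schwann cell and milk protein genes.

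Stromal markers rose too. All 15 fibroblast markers were higher. Dcn, the proteoglycan decorin, stood at 0.0555, 0.0913 and 0 CPM in culture and 387, 252, 297, 158 and 297 CPM in tumors, a count ratio of 5397-fold (95% counting interval 1847 to 26173). Lum, lumican, stood at 0, 0.0457 and 0 and 97.3, 113, 29.8, 152 and 195 CPM, with tumor 3 lowest, and Pdgfra, which D2.1 cells expressed in culture, at 57.6, 65.1 and 76.7 and 424, 347, 460.4, 204 and 615 CPM (2.62 ± 0.32). Endothelial markers rose at 15 of 16 and Flt1 fell. Pecam1 (CD31) stood at 0.222, 0.228 and 0.163 CPM in culture and 31.3, 23.2, 31.8, 29.5 and 26.0 CPM in tumors (7.06 ± 0.30, adjusted p = 7.8e-08), and Cdh5, VE-cadherin, at 0.277, 0.0457 and 0.0543 and 22.5, 11.7, 26.6, 14.6 and 17.1 CPM (7.18 ± 0.56, adjusted p = 2.6e-06). The rise was smaller than in D2A1 for 6 of the 16 in the line-by-condition test, including Pecam1 (-2.86 ± 0.63, adjusted p = 0.0045), Cdh5 (-4.29 ± 1.18, 0.021) and Kdr (-5.40 ± 1.49, 0.023). Endothelial sums were 289 to 345 CPM in D2.1 tumors and 539 to 645 CPM in D2A1 SCID-beige tumors. Of 9 pericyte and smooth muscle markers 6 rose; Rgs5 stood at 0, 0.0457 and 0 and 11.8, 9.81, 8.39, 21.6 and 28.8 CPM, while Notch3 and Cspg4 were expressed in culture and did not pass (1.10 and 1.71), although Notch3 passed without culture 3 (1.88) or tumor 1 (1.27). Mast cell markers rose at 7 of 7, or at 4 without tumors 4 and 5; Cpa3, mast cell carboxypeptidase, stood at 13.9, 8.12, 0.994, 7.43 and 2.61 CPM in tumors and 0 in culture.

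The exact permutation test of the summed level, 2-sided over the 56 splits of 5 tumors and 3 cultures, gave the smallest p the design allows, 0.0179 (0.0238 adjusted over the 16 lists), for 12 lists: macrophage, neutrophil, dendritic, T, B, NK, mast, endothelial, pericyte, fibroblast, red cell and skin. Adipocyte (adjusted p = 0.11), skeletal muscle (0.324), Schwann cell (0.339) and milk protein (0.143) sums did not pass this exact test. Adipocyte members were called at 7 of 8. Without tumors 4 and 5 the count was 3, in a fit that may have left scarce members untested. Adipoq, adiponectin, stood at 4.74, 2.62, 0.221, 8.56 and 5.34 CPM in tumors 1 to 5. Skeletal muscle sums ran from 3.59 to 318 CPM in tumors against 7.17 to 9.64 CPM in culture. Myh4, fast myosin, stood at 0, 3.92, 0.387, 68.8 and 73.3 CPM, and 6 of 9 muscle members were called with all tumors, 1 without tumor 4 or tumor 5 and 2 without any single culture. Schwann cell markers rose at 3 of 5, Sox10 among them. Among 3 red cell markers Hba-a1, Hbb-bs and Alas2 rose, to 1.80 to 8.01 CPM for Hba-a1. No milk protein gene was tested, and the 1 skin gene tested, Sbsn, rose (2.52) and did not pass without any 1 of the cultures.

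Antigen presentation genes rose in the same tumors. Of 7 MHC class II genes 7 rose (median 8.59). Cd74, the invariant chain, stood at 2.44, 2.88 and 4.56 CPM in culture and 1626, 1746, 725, 631 and 1021 CPM in tumors (8.45 ± 0.52, adjusted p = 4.6e-07), and Ciita, the class II transactivator, at 0, 0.137 and 0.109 and 26.7, 24.0, 12.6, 7.54 and 21.1 CPM. Tumors 3 and 4 were lowest for both. MHC class I and peptide loading genes rose at 10 of 12 and Erap1 fell (median 2.37). B2m, the class I light chain, stood at 514, 324 and 304 and 1227, 1894, 957, 1489 and 1289.8 CPM (1.85 ± 0.26, adjusted p = 0.00018), H2-K1 at 26.2, 27.1 and 15.4 and 99.3, 133, 62.3, 155 and 124 CPM (2.33 ± 0.31), and the immunoproteasome subunit Psmb8 at 11.6, 9.36 and 6.35 and 139, 178, 76.3, 178 and 114 CPM (3.91 ± 0.34). The 3 had no overlap. None of the 12 class I or 7 class II genes was called in the line-by-condition test. These genes are expressed by macrophages, whose 20 markers summed to 2099 to 4721 CPM in tumors, and the part of host cells was not tested.

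Of 22 interferon-stimulated genes 7 were higher (31.8% by count, near the 30.8% of all genes), none lower, with a median of 0.54 that was 0.21 without culture 3, 0.15 without tumor 4 and 0.11 without tumors 4 and 5 together. Isg15 stood at 116, 89.7 and 40.8 CPM in culture and 45.1, 55.2, 32.5, 112 and 40.7 CPM in tumors (-0.53 ± 0.40, adjusted p = 0.29), with tumor 4 at the level of culture 1; without tumor 4 it changed by -0.91 and passed. Irf7 (1.23 ± 0.47, adjusted p = 0.045) lost its call without culture 1 (1.40), culture 2 (1.48), culture 3 (0.85), tumor 1 (1.27), tumor 2 (1.27) or tumor 4 (0.81) and without tumors 4 and 5 together (0.83), and the count of 7 was 4 without culture 2 or culture 3. The interferon-stimulated response element was in promoters of 9 of 16 genes (56.2%, against 2.98% of all promoters and 2.79% of those of tested genes). Complement genes rose at 7 of 8 (median 3.48): C4b stood at 0.222, 0.274 and 0.109 and 108, 101, 94.5, 70.4 and 105 CPM (8.82 ± 0.32), and C3 at 18.7, 25.02 and 10.3 and 47.6, 68.8, 64.6, 68.7 and 70.7 CPM (1.83 ± 0.27, adjusted p = 0.00026).

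Chemokines and myeloid growth factors rose at 11 of 19 and fell at Cxcl1, Cxcl5 and Il6 (median 3.05). Cxcl1, a neutrophil attractant, stood at 211.5, 126 and 62.1 CPM in culture and 12.6, 16.9, 65.3, 5.52 and 11.8 CPM in tumors (-2.57 ± 0.67, adjusted p = 0.008), and tumor 3 alone reached the cultures. Cxcl12, a stromal chemokine, had no counts in culture and 4.91, 4.09, 1.77, 5.85 and 9.04 CPM in tumors, at least 33.04-fold higher; the D2A1 value of 0.30 did not pass, and the lines differed in the line-by-condition test (adjusted p = 3.3e-05). Ccl2, a monocyte attractant, stood at 62.6, 34.2 and 28.3 and 20.7, 33.5, 38.4, 114 and 18.0 CPM and did not pass (0.11, adjusted p = 0.88), whereas it changed by 5.07 in D2A1 (difference -4.97 ± 0.76, adjusted p = 0.00017). Csf1, the macrophage growth factor, stood at 204, 214.5 and 211.1 and 100.5, 140.5, 217.7, 32.1 and 104 CPM (-0.82 ± 0.42, adjusted p = 0.12), lowest in tumor 4 and at the culture level in tumor 3; without tumor 3 it changed by -1.15 and passed.

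Across the transcriptome, 300 genes had at most 3 counts in every culture and a mean of at least 5 CPM in tumors, 116 of them with no culture count. The highest in tumors were Dcn, H2-Ea-ps, Fcgr2b, Mrc1, Lum, Fcrls, Sox18, Adgre1, F13a1 and Cilp, of which Fcgr2b shares exon bases with Gm38204 and F13a1 with Gm30489. H2-Ea-ps, annotated as a polymorphic pseudogene of the class II Eα chain in the C57BL/6 reference, stood at 344, 430.4, 159.5, 113 and 238 CPM; the BALB/c background carries an expressed allele. Sox18, an endothelial transcription factor, was split, at 8.06, 264, 10.4, 3.60 and 202 CPM in tumors 1 to 5, with tumors 2 and 5 high and the other 3 low. The largest rises by the fitted value also included Rac2, Pdpn, Il10ra, Ly86, Ccl12, Ncf4, Arhgap30 and BC037034, all without culture counts. Rac2, a hematopoietic GTPase of the NADPH oxidase, reached 76.4, 74.9, 62.0, 45.0 and 62.8 CPM (at least 413-fold higher), and Pdpn, podoplanin, 133, 31.6, 22.5, 29.0 and 60.0 CPM (at least 355-fold higher), highest in tumor 1. Among the 8 largest gains in CPM was Apoe, the lipoprotein abundant in macrophages, at 10.9, 8.49 and 6.95 CPM in culture and 2335, 3577, 2846, 1102 and 1806 CPM in tumors (8.06 ± 0.48, adjusted p = 3.5e-07).

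Most of the largest falls were in genes whose exons are shared. Of 60 genes that fell by more than 5 on the log2 scale, 37 share exon bases with a gene that only the tumor table lists, and 36 of the 37 also fell in D2A1; the part of counting in these falls was not tested. Among all tested genes, 1378 share such bases and 31.0% of them were called lower, against 21.3% of the other 12733. Raver1 stood at 197, 216.4 and 229 CPM in culture and 0 in all 5 tumors, Hgs at 93.3, 96.0 and 99.0 CPM and 0, Nupl1 at 66.8, 73.6 and 78.6 CPM and 0, and Gnpnat1 at 47.7, 40.9 and 34.4 CPM and at most 0.171 CPM. These ubiquitous genes, with Gm49342, Gp1bb, Pagr1a and Fdps, make 8 of the 10 largest falls among protein-coding genes with at least 5 CPM in culture and no overlap, and all 8 share exons in this way. The lincRNA Gm42418 and the pseudogene Gm6436, at 2089.7 to 2772 and 82.2 to 166 CPM in culture and 0 in tumors, share them as well. Without any of these genes the count of calls was 6742 of 12749.

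**Figure D4:**
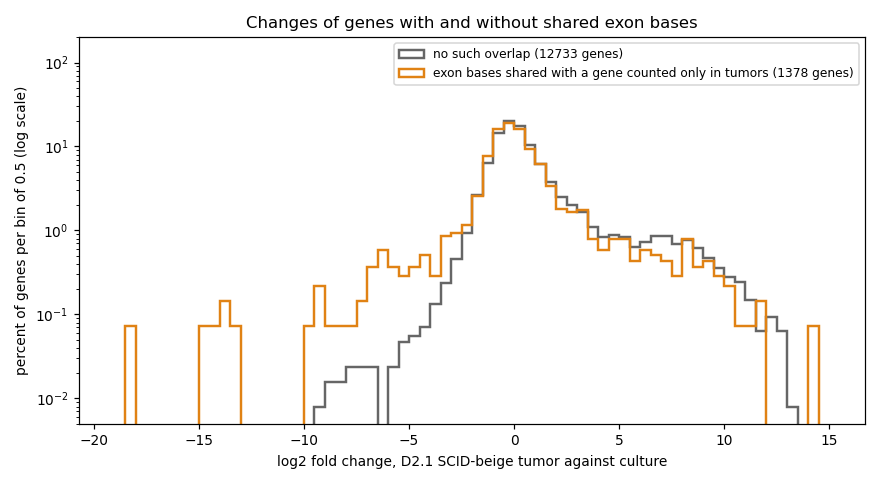
Distribution of the log2 fold change, tumor over culture (horizontal axis, bins of 0.5), as a percent of genes in each set (vertical axis, log scale), for 1378 genes whose exons share bases with a gene counted only in tumors and for the other 12733. The curves lie close together around 0 and part below -5, where 37 of 60 genes are in the sharing set.

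Among genes whose exons overlap no other gene, the largest falls were Krt36, Ces1g, Wdr74, Gsta1, U90926, Gal3st1, Pparg, Sema3e, Cdh17 and AU018091. Krt36, a hair keratin, stood at 19.9, 15.2 and 13.6 CPM in culture and 0, 0, 0, 0.113 and 0 CPM in tumors, so that a single tumor had any counts. Pparg, the nuclear receptor of adipocyte and luminal differentiation, stood at 52.4, 46.7 and 31.1 and 1.94, 1.36, 0.663, 2.48 and 1.52 CPM (-4.76 ± 0.35, adjusted p = 1.4e-06) and changed by 1.68 in D2A1. Sema3e, a semaphorin, stood at 44.1, 40.6 and 41.4 and 2.11, 1.04, 2.43, 2.48 and 1.34 CPM (-4.48 ± 0.28, adjusted p = 5.1e-07) and Cdh17, an intestinal-type cadherin, at 17.1, 18.0 and 18.2 and 0.514, 0.272, 1.10, 1.91 and 0.425 CPM (-4.38 ± 0.50). None of these 3 overlapped. The largest losses in CPM free of overlap were Hsp90ab1, Actb, Tpm1, Npm1, Hsp90aa1, Eif5a, Atp5b and Nedd4. Tpm1, tropomyosin 1, stood at 1974, 1968 and 1724 and 416, 362, 346, 616 and 421 CPM (-2.13 ± 0.20, adjusted p = 7.8e-06), and the chaperone Hsp90aa1 at 1650.4, 2086 and 1181 and 415, 357, 658, 690.4 and 781 CPM (-1.50 ± 0.27). Actb, β-actin, fell by less (-0.57 ± 0.20, adjusted p = 0.035) and lost its call without culture 1 (-0.53), culture 2 (-0.43), tumor 2 (-0.50), tumor 3 (-0.50) or tumor 5 (-0.56), and with library totals alone (-0.41).

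The change of D2.1 was set beside that of D2A1, which shares no sample with it. Of 13869 genes tested in D2A1, 8054 (58.1%) passed. Both lines called 5258 genes, 5054 of them in the same direction, and across the 13265 genes tested in both the log2 fold changes correlated at 0.848, a value across genes that share tables, hosts and annotation and that has no p. The line-by-condition test called 1930 of 15077 genes (12.8%), with a more positive change in D2.1 at 696 (4.62%) and a more negative one at 1234 (8.18%). The largest positive differences were Peg3, Olfm1, Col2a1, Cntln and Ltk. Olfm1, olfactomedin 1, stood at 0, 0 and 0.0543 CPM in D2.1 culture and 30.2, 24.2, 23.7, 26.3 and 23.6 CPM in D2.1 tumors, while its D2A1 means were 79.4 and 82.2 CPM (difference 9.99 ± 0.42, adjusted p = 8.6e-11). Col2a1 was at means of 0.0597 and 0 CPM in D2A1 (difference 9.74 ± 2.26, adjusted p = 0.01), a call lost without D2A1 culture 3 (8.92). The largest negative differences were Lcn2, Stra6, Nos2, Pi15 and Bcl6b. Lcn2, lipocalin 2, stood at 39.6, 33.2 and 2.60 CPM in D2.1 culture and 4.29, 4.69, 12.3, 4.78 and 2.73 CPM in D2.1 tumors and rose in D2A1 from a mean of 0.102 to 19.1 CPM (difference -9.59 ± 1.24, adjusted p = 3.6e-05). Stra6, a retinol transporter, rose in both lines, and its difference did not pass without D2.1 culture 3 (-8.33); that of Nos2 did not pass without D2.1 culture 1 (-7.79). Fitted differences of this size depend on the prior count where a group has few or no counts. By list, the change was more negative in D2.1 for 11 of 24 cholesterol, 8 of 23 YAP and 8 of 19 chemokine genes. The share of all genes was 8.18%. Other lists had similar counts, among them 6 of 16 endothelial, 5 of 12 study-named, 5 of 13 Nrf2 and 5 of 13 metalloproteinase genes. In these lists 3 YAP genes, 1 chemokine and 1 metalloproteinase gene were more positive. No mitosis, ribosome biogenesis, MHC class I or MHC class II gene was called in the line-by-condition test.

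**Figure D5:**
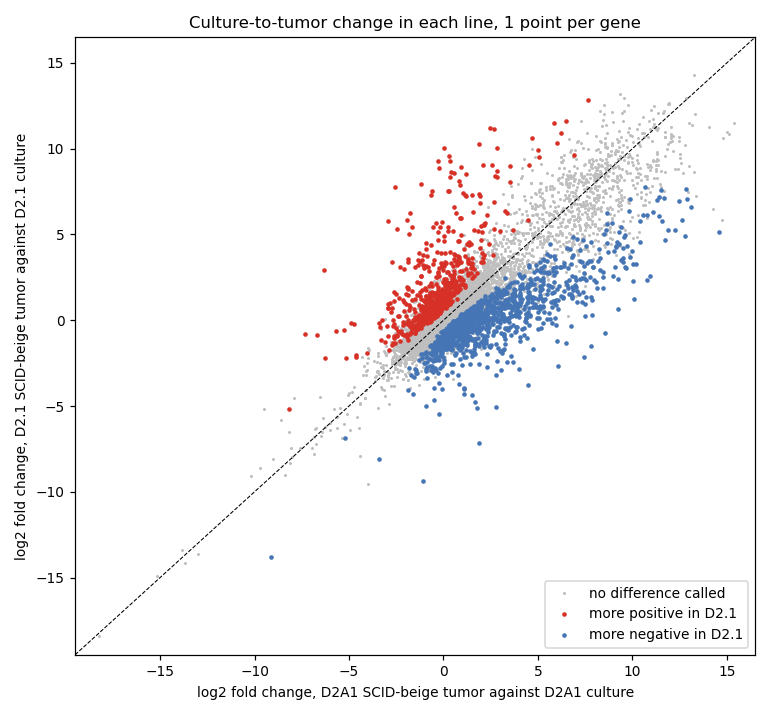
Log2 fold change, tumor over culture, in D2A1 (horizontal axis) and D2.1 (vertical axis) for 13265 genes tested in both lines, 1 point per gene. Red and blue points were called in the line-by-condition test as more positive or more negative in D2.1, gray points were not, and the dashed line marks equal change. Most points follow the line, and Col4a1 is among the red points (8.61 in D2.1, 0.41 in D2A1) and Krt18 among the blue (-4.03 and 1.08).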

How the data were processed

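RNA-seq libraries of D2.1 and D2A1 cultures and tumors were sequenced on an Illumina NovaSeq instrument. The authors deposited raw read counts per gene in 1 table for cultures and 1 for tumors, with FPKM in matching tables; the submitters' processing notes name STAR and mm10, and the counting program, annotation and strand setting are not given in the sources used here. FPKM that the authors deposited came with different gene lengths in the 2 tables (equal for 16.6% of 14794 genes) and were used only in alternatives, for summed levels and gene lengths.

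The count tables were joined by Ensembl gene id (34519 shared genes, holding all but 0.0742% to 0.113% of culture and 0.573% to 0.836% of tumor counts). Genes passing filterByExpr were tested with edgeR 4.0.16 in R 4.3.3 (TMM, robust quasi-likelihood, Benjamini-Hochberg over all genes tested, threshold 0.05). Each SE is the log2 fold change divided by the square root of the quasi-likelihood F. Samples called replicates were taken as labeled; cultures are triplicates whose independence is not stated, and p-values then measure only the spread between these samples. Summed markers were compared by exact permutation of log2(CPM + 0.1). Promoters came from RefSeq and gene positions and biotypes from GENCODE M21. A fold bound set the other group at 3 counts per library. Intervals and floors cover counting error only.

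The members, lists and tests were chosen with earlier results of these data known. Named genes are the preset leading members of each list, whatever their change, other members where a count of 5 or fewer is spelled out, the 10 largest rises and falls among protein-coding genes whose groups did not overlap (5 CPM or more on the higher side), the 10 highest genes nearly absent from the other group, the 8 largest gains and losses in CPM, and the 5 largest line-by-condition differences in each direction among protein-coding genes with at least 5 CPM in 1 group. List members outside this rule that serve as extremes or examples were named after their values were seen. On simulated counts for the D2.1 comparison (13794 genes), edgeR recovered 48% of changes of 1 and 94% of changes of 2 on the log2 scale. For the line-by-condition test the recovery was 10% and 73%. The changed genes were drawn only from well-counted genes, so these shares do not cover genes with few counts. Alternatives included DESeq2 1.42.0, other scalings and filters, GC and length correction by lowess offsets, the replicate block and each library left out; figures used matplotlib 3.10.9 in Python 3.11.15. The replicate numbers did not pair cultures with tumors. The values of some list members are not reported here.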

Additional observations from a re-analysis of the deposited data

Results flagged for a closer look

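Of 221 named genes, 27 (12.2%) had 1 D2.1 tumor far from the other 4 by Dixon's criterion, where chance gives about 1 in 20. Tumor 4 was the distant sample for 18 of the 27 and lay high for 17. It was high for epithelial genes: Krt8 at 891 CPM, Krt18 at 161, Epcam at 10.6 and Krt17 at 2.81. It was high for Ccnb1 (102 CPM), Sqle (366), Npm1 (869.6), Hspa5 (1716), Ldha (2563), Pkm (4231) and Ndufs1 (78.0). It was also high for the inflammatory genes Isg15 (112 CPM), Irf7 (324) and Ccl2 (114), and for Tpm1 (616), Cspg4 (7.15) and Stra6 (30.3), and low for Sparc (2013 CPM). Its milk protein sum was 5.76 CPM, apart from the other tumors for 1 of 16 marker lists.

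Tumor 3 was the distant sample for 6 genes: Krt14 at 321 CPM, Id4 at 36.4, Cxcl1 at 65.3, Lcn2 at 12.3 and Gatm at 173 were high, and mt-Co1 at 5863 was low. Tumor 5 was high for Col5a1 (2144 CPM) and Peg3 (4.31), and tumor 1 was low for C3 (47.6 CPM).

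The change from culture to SCID-beige tumor differed between D2.1 and D2A1 for 1930 genes in the line-by-condition test, among them 44 of the 184 leading list members. Values that follow are the D2.1 change minus the D2A1 change on the log2 scale. Vessel genes were more negative in D2.1: Pecam1 -2.86, Cdh5 -4.29, Kdr -5.40, Notch3 -4.70 and Cspg4 -3.40; the dendritic cell factor Zbtb46 was more positive at 2.47. Epithelial genes were more negative, with Krt8 -3.55, Krt18 -5.12 and Cdh1 -4.03, while Zeb1 was 1.64; the study's D2.1 genes Cd200 and Ptn were -1.80 and -3.40. In metabolism Hmgcs1 was -1.95, Fasn -0.83, Car9 -2.22, Nqo1 -2.29 and Hmox1 -1.89, and Acly 1.06 and Chac1 1.19 went the other way.

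Mechanical and early response genes were more negative in D2.1: Ccn1 -2.51, Ccn2 -2.43, Ankrd1 -1.49, Amotl2 -1.57, Myl9 -3.37 and Nr4a1 -3.94. Matrix genes went both ways, with Col4a1 8.19 and Col2a1 9.74 against Col5a1 -1.30, Lox -5.88 and Spp1 -4.22. Growth factor genes were Tgfb1 -1.23, Igf1 -3.20, Igfbp5 1.69 and Igfbp7 5.44. Inflammatory genes were C3 -3.01, Ccl2 -4.97, Cxcl1 -3.09 and Cxcl12 9.19. Other leading members were Phlda3 -2.19, Trp53 1.25, Nr1d1 -1.31, Dbp -1.54 and Arntl -1.03. By size, the largest other differences were Peg3 10.24, Olfm1 9.99, Cntln 9.45 and Ltk 9.27 on the positive side and Lcn2 -9.59, Stra6 -9.52, Nos2 -8.94, Pi15 -8.78 and Bcl6b -8.55 on the negative side. Fitted differences of this size depend on the prior count where a group has few or no counts.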

How the results depend on the processing

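Calls between D2.1 culture and tumor numbered 7498 and ranged from 5903 to 7659 when each library was left out in turn. A further requirement of a log2 fold change beyond 1 left 4867, restriction to genes whose length was equal in culture and tumor files 748 (of 1658 tested), and removal of genes overlapped by any other gene 4756 (of 8985 tested, chosen after seeing the data); the last 2 test fewer genes by construction. The line-by-condition count of 1930 ranged from 1418 to 2164 without 1 library and was 207 (of 1867 tested) for genes of equal length. The D2A1 count of 8054 ranged from 6745 to 8200, and was 5180 with a log2 fold change beyond 1, 781 for equal lengths and 5167 without overlapped genes. DESeq2 called 7856, 2453 and 8447. On simulated D2.1 counts 19.2% of its calls were false, against 5.96% with edgeR. Those counts used the spread estimated by edgeR, and of 13794 genes only 100 were changed by 1 and 100 by 2 on the log2 scale. These shares therefore do not carry over to the calls made on the data. The FPKM sum of adipocyte markers differed by 3.28 on the log2 scale and passed, against 1.86 for CPM. For genes of equal length the adipocyte and basal medians were -1.24 and -0.89. With 1658 genes tested there, these medians cover only part of each list and do not show a change of direction of its members. In the main fit the lowest members of the 2 lists stood at -1.20 and -1.58. The cause was not tested.

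Same-numbered D2.1 cultures and tumors did not deviate together (correlations 0.0348, -0.136 and 0.0411), so the numbers were read as names. With the replicate number as a block the counts were 7135, 2462 and 9299. A call or count changed under at least 1 alternative for 42 of 49 list counts, 37 of 49 list medians, 1 of 16 marker sums and 57 of 242 named genes. The fits without genes sharing exons and without tumors 4 and 5 were also added after seeing the data, and gave 6742 and 7090. The fit without tumors 4 and 5 tested 13563 genes, and a list member it did not test could not add to its list count. Depth limits scarce genes: 3 counts correspond to 0.121 to 0.188 CPM in the D2.1 libraries.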
